A study of Cenchrus americanus with 9 samples.

Results

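Lateral roots were compared with crown root tips of pearl millet, gene by gene, in 6 of the 9 RNA sequencing libraries of the series. The 3 lateral root and 3 crown root libraries were taken by their labels, and the contrast covered all 19754 genes of the deposited table. All plants were of the Tift23DB genotype, untreated as far as the labels say, and were grown in rhizotrons (thin soil boxes with a clear face) for 15 days. Crown root libraries held the last 5 cm of these roots. Lateral root libraries held the branches borne on primary roots, which the study's results describe as long lateral roots. No measured length and no apex is given for them. Each library was made from roots of 3 plants pooled before extraction, so n counts pools and not plants. The 3 libraries of primary root tips are outside the contrast and entered the model only through the shared estimate of the spread. No agent, mutation or transgene separates the groups.

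Crown roots of cereals are shoot-borne roots that emerge from the nodes of the stem and form most of the adult root system. Lateral roots are branches that start from inner cell layers of an existing root and are thinner, and they make up much of the surface through which water and nutrients are taken up. A root apex holds the cap, the meristem and the zone of elongation, while older parts hold differentiated cells. The contrast therefore sets an organ type and a position against another, and the difference between root types cannot be told apart from the difference in the part of the root sampled or in the parent root. In whole tissue, fewer cells of a type and less RNA per cell cannot be told apart either.

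The files give each gene an identifier and pair it with no name, so cell type markers and pathways were not checked, and the labelled tissues rest on the labels. The unit throughout is the normalised count, a count divided by 1 factor per library and not by gene length. The counts recovered from the table summed to between 45602970 and 64062081 in lateral roots and between 49026933 and 55457911 in crown roots, so the depths of the groups overlapped. The crown root replicates were less alike than the lateral root replicates. The median SD of log2(normalised count + 1) over 3 replicates was 0.291 in crown roots and 0.224 in lateral roots, and it was larger in crown roots for 60.6% of the genes. Crown root replicate 1 stood farthest from the others of its group, with a median absolute difference of 0.390 on that scale from the mean of the other two, against 0.163 to 0.273 for the other 5 libraries of the contrast. Some counts of called genes below are also given without it: those by direction, at 4-fold and in the highest decile.

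The libraries of the root types differed in how their counts were spread over genes. The 100 highest genes of each library took 17.0%, 16.6% and 16.0% of its normalised total in lateral root replicates 1 to 3. In crown root replicates 1 to 3 they took 21.4%, 19.0% and 18.2%. Every crown root library thus had more of its total in few genes than any lateral root library. The mean difference, lateral minus crown roots, was -3.02 percentage points, and -2.09 without crown root replicate 1. The number of genes listed at 0 was 179, 183 and 244 in the lateral root replicates and 338, 398 and 302 in the crown root replicates. The median gene ran the other way, at 677 ± 6.54 (SD, n = 3) in lateral roots and 611 ± 16.3 (SD, n = 3) in crown roots. The mean total after normalisation was 49206181 in lateral roots and 55584354 in crown roots. None of these groups of values overlapped. For each of the 6 such measures compared, an exact two-sided permutation test gave p = 0.1, the smallest that 3 libraries against 3 allow, so none can pass 0.05 (0.1 after Benjamini-Hochberg adjustment).

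**Figure D1:**
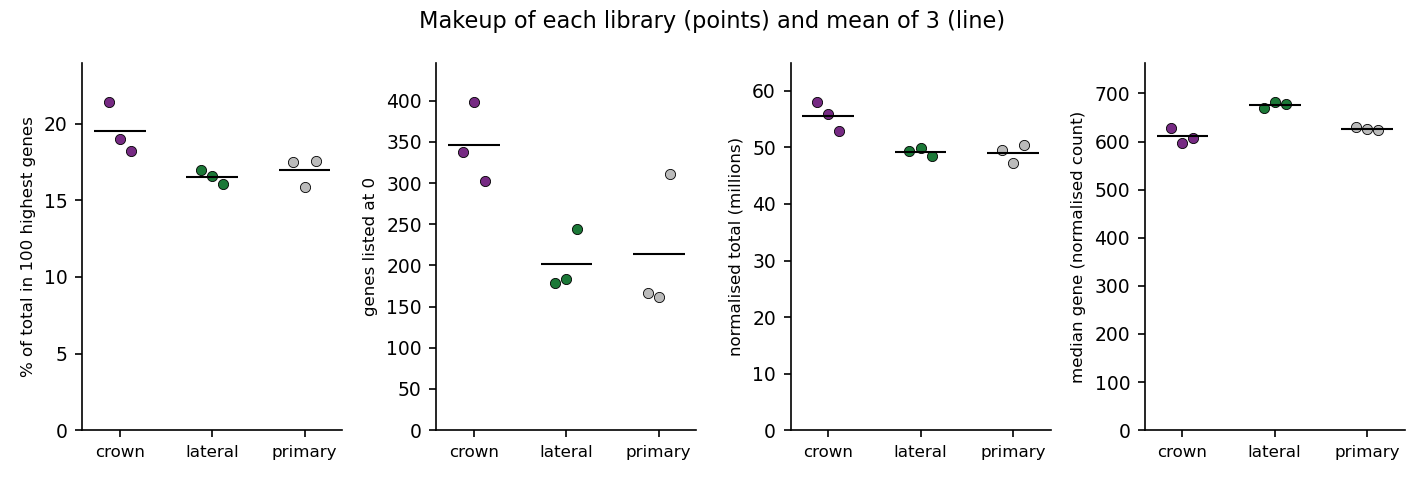
Makeup of the 9 libraries, each point a library and each line the mean of 3, with all axes from 0. The 3 crown root libraries lie above the 3 lateral root libraries in the share of the total held by the 100 highest genes (18.2% to 21.4% against 16.0% to 17.0%), in genes listed at 0 and in the total, and below them in the median gene. Primary roots are shown for reference.

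A gene was called when limma, fitted on log2(normalised count + 1), gave a Benjamini-Hochberg adjusted p below 0.01 together with a fitted change of 1 or more, up or down, in log2 fold change. Of the 19754 genes 2613 were called, 13.2% of all. Higher in lateral roots were 1656 genes, 8.38% of all, and lower were 957 genes, 4.84% of all. A further 1098 genes passed the adjusted p with a change under 1, and 2005 genes changed by at least 1 in the fit without passing the adjusted p. Testing against a log2 fold change of 1 itself (limma's treat, adjusted p under 0.01) left 720 genes, 3.64% of all, 563 of them higher and 157 lower. Without crown root replicate 1, 1912 genes were higher and 848 lower.

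The share of calls that were higher in lateral roots depended on the scale. It was 63.4% with the factors of the deposited table, 74.1% with all libraries scaled to equal totals and 55.5% with quantile normalisation, and 69.3% without crown root replicate 1. Over all genes the fold changes had a median of 0.02, 0.19 and -0.08 (log2) on the 3 scales, so changes are relative to a centre that the scale sets. All 3 scales gave a call of the same sign for 2102 of the 2613 genes, 1396 higher and 706 lower. In none of the 18 alternative fits did a called gene, where it was fitted, change the sign of its fitted change.

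**Figure D2:**
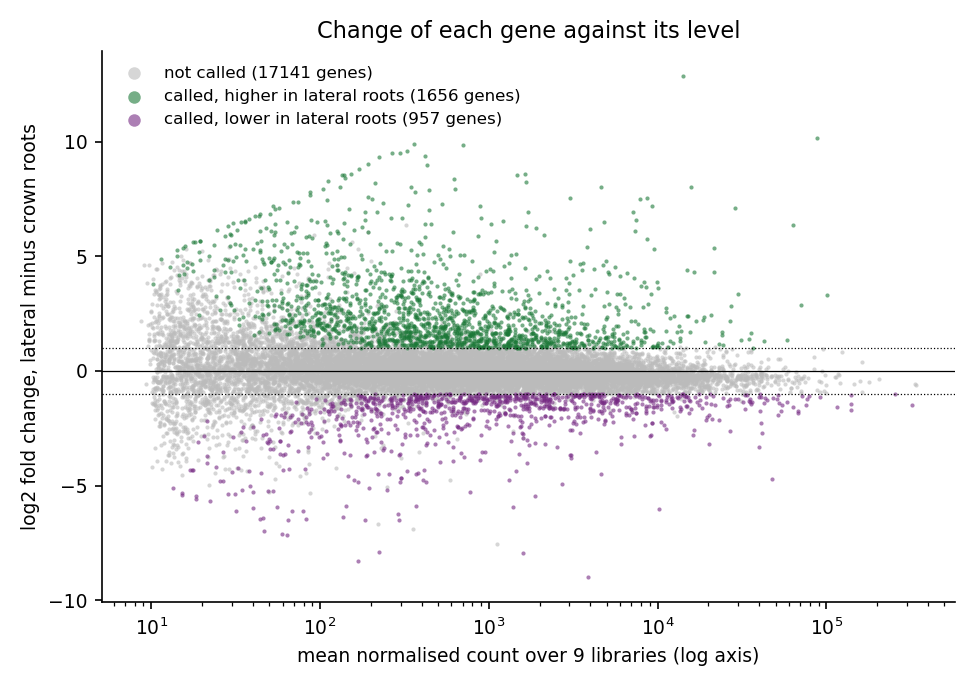
Log2 fold change of lateral minus crown roots (vertical) against the mean normalised count over 9 libraries (horizontal, log axis), 1 point per gene, with dotted lines at 1 and -1. The 1656 genes called higher reach farther from 0 than the 957 called lower. The slanting edges at the upper and lower left hold genes at 0 in the libraries of a root type, whose fitted change is set by the pseudocount.

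Increases in lateral roots were larger as well as more frequent. The median log2 fold change was 2.11 among the genes called higher and -1.56 among those called lower, each fixed in part by the threshold. At least 4-fold changes were found in 892 genes higher and 295 lower, and at least 16-fold changes in 300 and 74. Without crown root replicate 1 the numbers at 4-fold were 999 and 227. At least 256-fold changes were fitted for 26 genes higher and 2 lower. More genes were higher than lower at both 4-fold and 8-fold in all 18 alternative fits. With quantile normalisation, the scale least in favour of increases, 741 genes were higher and 375 lower at 4-fold.

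Many of the largest fitted changes rest on a library at 0. Of the 103 genes at least 64-fold higher in lateral roots 76 had a crown root library listed at 0, and of the 18 genes at least 64-fold lower 15 had a lateral root library at 0. The size of such a change depends on the pseudocount, and it is given here as a fitted value only. Genes above 0 in all 6 libraries kept the imbalance, with 730 higher and 251 lower by at least 4-fold. The largest fitted log2 fold change of all, 12.86, belonged to a gene with normalised counts of 58234, 21429 and 36612 in lateral root replicates 1 to 3. In crown root replicates 1 to 3 the same gene had 8.36, 0 and 10.79. Its libraries lay far apart even with the library at 0 set aside.

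**Figure D3:**
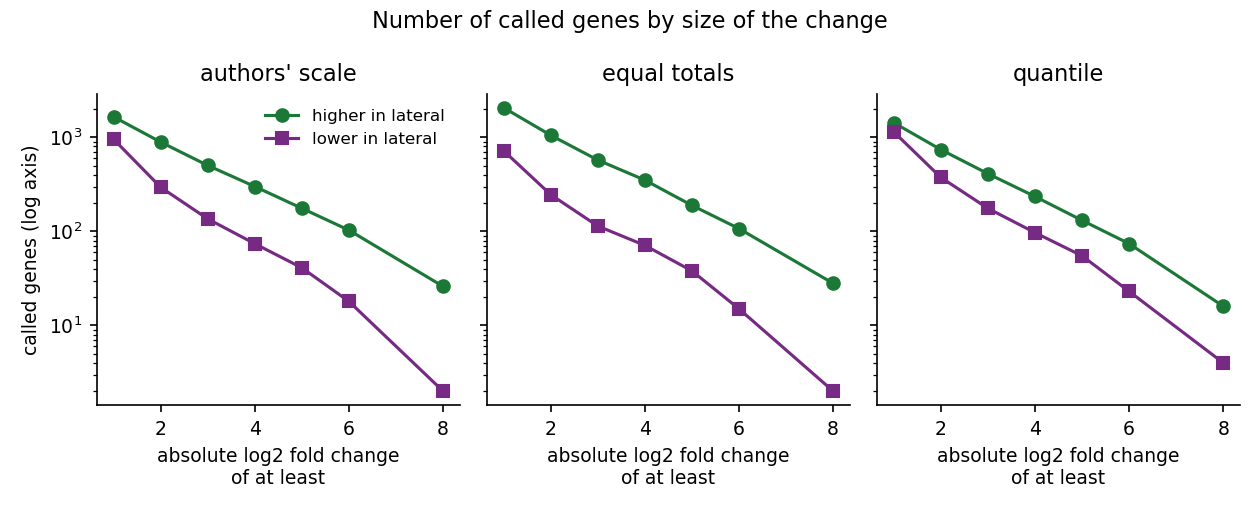
Number of called genes (log axis) whose absolute log2 fold change is at least the value on the horizontal axis, on the scale of the deposited table, with equal totals and with quantile normalisation. On each scale the line for genes higher in lateral roots lies above the line for genes lower, at every size shown (1656 against 957 at 1 and 300 against 74 at 4 on the deposited scale).

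On the deposited scale the genes that changed in each direction differed in level. The mean over the 9 libraries had a median of 468 normalised counts among the genes called higher in lateral roots, 973 among those called lower and 661 among all genes. That mean takes in primary roots and the root type in which a called gene is low. By the larger of the lateral and crown root means, the medians were 825, 1497 and 797, so the genes called higher were not below all genes. In the decile of genes with the highest mean, from 5524 normalised counts upward, 120 were called higher and 179 lower. In the fourth decile, from 221 to 395 normalised counts, the numbers were 258 and 102. On this scale the median log2 fold change over all genes ran from 0.27 in the lowest decile to -0.25 in the highest. The difference in level was therefore not particular to the called genes. The excess of lower calls among the highest genes depended on the scale: it became 140 higher against 132 lower with equal totals and 143 against 123 with quantile normalisation. It remained on the deposited scale without crown root replicate 1, at 133 and 163. Below the highest decile lower calls were fewer on the deposited scale, though by little in the ninth, with 117 higher and 104 lower. With equal totals the fourth decile had 307 higher and 79 lower. That scale moves all changes toward lateral roots (median 0.19 in log2), so it cannot test the scarcity of lower calls. With quantile normalisation only the highest decile was counted.

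The standard error and the share of changes called differed with level. In the lowest decile, with means from 8.72 to 40.3 normalised counts, the median standard error of the log2 fold change was 0.838. There 1040 genes had a fitted change of at least 1 and 9.33% of them were called. In the highest decile the median standard error was 0.160 and 96.1% of 311 such genes were called. The lack of a call in the lowest decile therefore says less about a gene than in the highest.

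**Figure D4:**
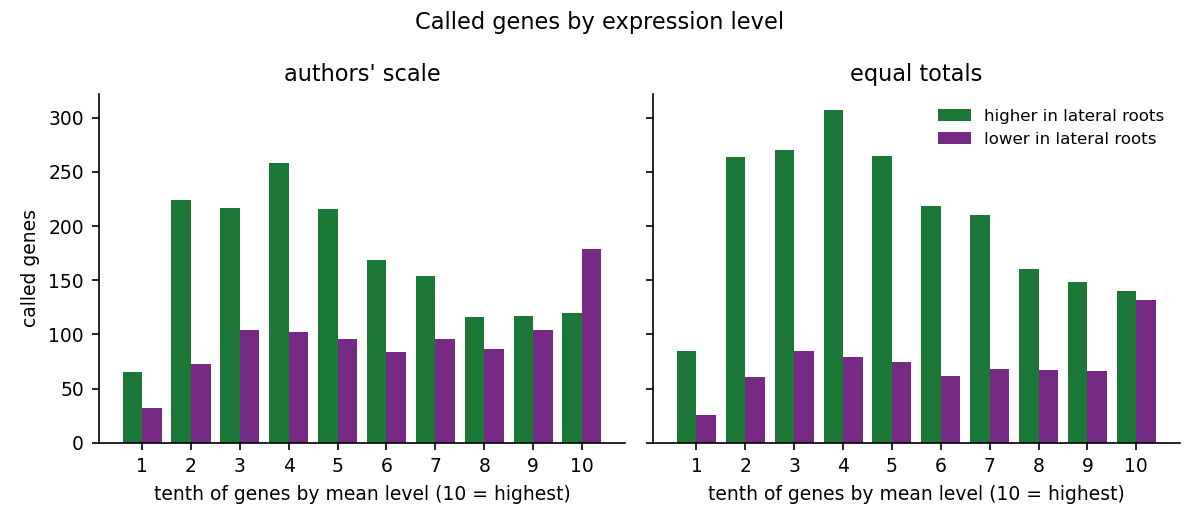
Number of genes called higher and lower in lateral roots in each decile of genes by mean level (10 is the highest), on the scale of the deposited table and with equal totals. Higher calls peak in the fourth decile (258 and 307). In the highest decile lower calls exceed higher ones on the deposited scale (179 against 120) but not with equal totals (132 against 140).

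The called genes carried unequal parts of the libraries. The 1656 genes called higher took 11.0% to 12.1% of the normalised total in lateral root libraries and 2.07% to 2.46% in crown root libraries. The 957 genes called lower took 5.59% to 6.54% in lateral and 13.5% to 17.1% in crown root libraries. These genes were chosen for this difference, so the shares describe its weight and add no test. In mean normalised counts the called higher genes added 4402002 to lateral roots and the called lower genes took away 5368819. The genes not called took away another 5411357, out of a net difference of 6378173 between the totals, which scaling to equal totals sets to 0. As shares of the total they did not lie apart, at 82.3% to 82.5% in lateral and 80.5% to 84.1% in crown root libraries.

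Primary root tips, whose values did not enter the contrast, had a mean between the lateral and crown root means for 1524 of the 1656 genes called higher and 908 of the 957 called lower. Over all genes this held for 52.3%. Genes chosen for far apart lateral and crown roots leave more room between them, so nothing is read from the higher share. On the log2 scale 64.1% of the genes called higher and 54.3% of those called lower had a primary root level nearer to crown than to lateral roots. The same share over all genes was not computed, and the genes were chosen by the values at both ends. Nothing is read from these shares either. In primary root libraries the genes called higher took 4.06% to 4.86% of the total and the genes called lower 9.03% to 10.8%.

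The gene with the largest change among the called genes above 0 in all 6 libraries was Pgl_GLEAN_10005675. Its normalised counts were 277874, 177241 and 268024 in lateral root replicates 1 to 3 and 34.5, 624 and 404 in crown root replicates 1 to 3. Its mean normalised count, which is not corrected for gene length, ranked 3 of 19754 in lateral roots and 11928 in crown roots. It took 0.356% to 0.563% of the lateral root totals. The log2 fold change was 10.15 (SE 0.901, 95% interval 8.16 to 12.14, limma adjusted p = 2.28e-05). Between the 18 alternatives it ran from 8.88 to 10.95, and crown root replicate 1 held the lowest value. Primary roots held 10139, 44572 and 13438.

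The genes whose numbers follow directly on that identifier changed with it. The next number had 199006, 122875 and 170626 normalised counts in lateral roots and 1718, 2135 and 1976 in crown roots (log2 fold change 6.38 ± 0.379 SE, limma adjusted p = 2.82e-06). The number after that had 17794, 13086 and 22647 in lateral roots and 73.2, 154 and 258 in crown roots (log2 fold change 6.92 ± 0.435 SE, limma adjusted p = 3.76e-06). All 3 genes lay far higher in every lateral root library than in any crown root library, at levels that differed more than 10-fold among themselves in lateral roots. These neighbours, and those given for the genes that follow, were picked after the values were seen.

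Pgl_GLEAN_10003702 had the next largest increase among the called genes above 0 in all 6 libraries. It was measured at 5231, 4572 and 3994 normalised counts in lateral root replicates and 8.36, 8.12 and 18.35 in crown root replicates. The lateral root values were close together and the crown root values were near the low end of the table, above 3.86% of the genes. The log2 fold change was 8.60 (SE 0.461, 95% interval 7.58 to 9.61, limma adjusted p = 1.94e-06). Here too the next number was higher in lateral roots, with 891, 794 and 504 against 39.7, 43.6 and 22.7 (log2 fold change 4.34 ± 0.389 SE, limma adjusted p = 2.41e-05).

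Pgl_GLEAN_10014440 had the largest decrease, with or without genes at 0. Its normalised counts were 50.9, 7.00 and 15.6 in lateral root replicates 1 to 3 and 18013, 5838 and 8740 in crown root replicates 1 to 3. Crown root replicate 1 was the highest, and all 3 crown root values were over 100 times every lateral root value. The log2 fold change was -9.00 (SE 0.581, 95% interval -10.28 to -7.71, limma adjusted p = 4.03e-06), and its mean ranked 1003 in crown roots. Primary roots held 766, 723 and 648, which were close together and between the other root types. The number just before this identifier went the opposite way, with 1678, 1518 and 1586 in lateral roots and 363, 204 and 338 in crown roots (log2 fold change 2.44 ± 0.251 SE, limma adjusted p = 5.49e-05).

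Pgl_GLEAN_10015784 had the next largest decrease among the called genes above 0 in all 6 libraries, and a wide spread. It had 8.66, 52.9 and 4.16 normalised counts in lateral root replicates and 9014, 1735 and 2567 in crown root replicates. The groups did not overlap, and 1 library stood apart from the others in each of them. The log2 fold change was -7.94 (SE 0.902, 95% interval -9.94 to -5.95, limma adjusted p = 0.000105). With voom on recovered counts, added after the values were seen, the adjusted p was 0.0242 and the gene was not called; over the 17 other alternatives it stayed under 0.01. Its nearest numbers on either side were not called.

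The 4 genes that the study names as candidates for leaf ion content were not picked here by their change, unlike the genes described above. They lie in its association intervals, and its search for candidates also drew on the expression data of these root types. Over all genes the median absolute log2 fold change was 0.42, and Pgl_GLEAN_10002101 and Pgl_GLEAN_10030409 lay above it in size. On the adjusted p alone, 18.8% of all genes passed 0.01 and 8.34% passed it with a decrease, and 43.7% of all genes had no overlap between the groups. Of the 4 candidates 1 passed and 2 had no overlap. The shares over all genes are not matched for level. All candidates but Pgl_GLEAN_10030409 had lateral root means above those of 83.4% to 87.7% of the genes. Pgl_GLEAN_10002101, annotated by its likeness to the Arabidopsis plasma membrane protein Expp1, had 4870, 4797 and 3704 normalised counts in lateral roots and 7702, 7227 and 6670 in crown roots. Every lateral root value was below every crown root value. It fell by 0.70 on the log2 scale (95% interval -1.01 to -0.39, adjusted p = 0.00354 from limma), under the minimum change of 1. Leaving out crown root replicate 2 raised the limma adjusted p to 0.0144, leaving out lateral root replicate 3 raised it to 0.0141, and dropping the mean-variance trend raised it to 0.0125.

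Pgl_GLEAN_10014595 encodes a putative E3 ubiquitin ligase, an enzyme that attaches ubiquitin to chosen proteins. Its normalised counts were 3391, 3206 and 3386 in lateral roots and 4180, 2789 and 3028 in crown roots. The lateral root values lay within the range of the crown root values. The log2 fold change was 0.02 with a 95% interval from -0.32 to 0.36 (adjusted p = 0.937 from limma), which leaves out a 2-fold change either way.

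Pgl_GLEAN_10030410, like an Arabidopsis Golgi protein of vesicle transport, had 2763, 3270 and 4255 normalised counts in lateral roots and 3926, 4569 and 4107 in crown roots. The groups overlapped through lateral root replicate 3. The log2 fold change was -0.31 with a 95% interval from -0.65 to 0.03 (adjusted p = 0.151 from limma). Pgl_GLEAN_10030409, named for the same leaf cadmium interval and like glycosyl transferases, which add sugar groups, had 0, 21.8 and 15.6 in lateral roots and 119, 41.6 and 37.8 in crown roots. The groups did not overlap, yet the interval of the log2 fold change ran from -5.51 to -0.51 and the adjusted p was 0.0668 from limma. The fitted change was -3.01 with a lateral root library at 0. It was -1.585 without lateral root replicate 1 and -1.76 with a pseudocount of 10.

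**Figure D5:**
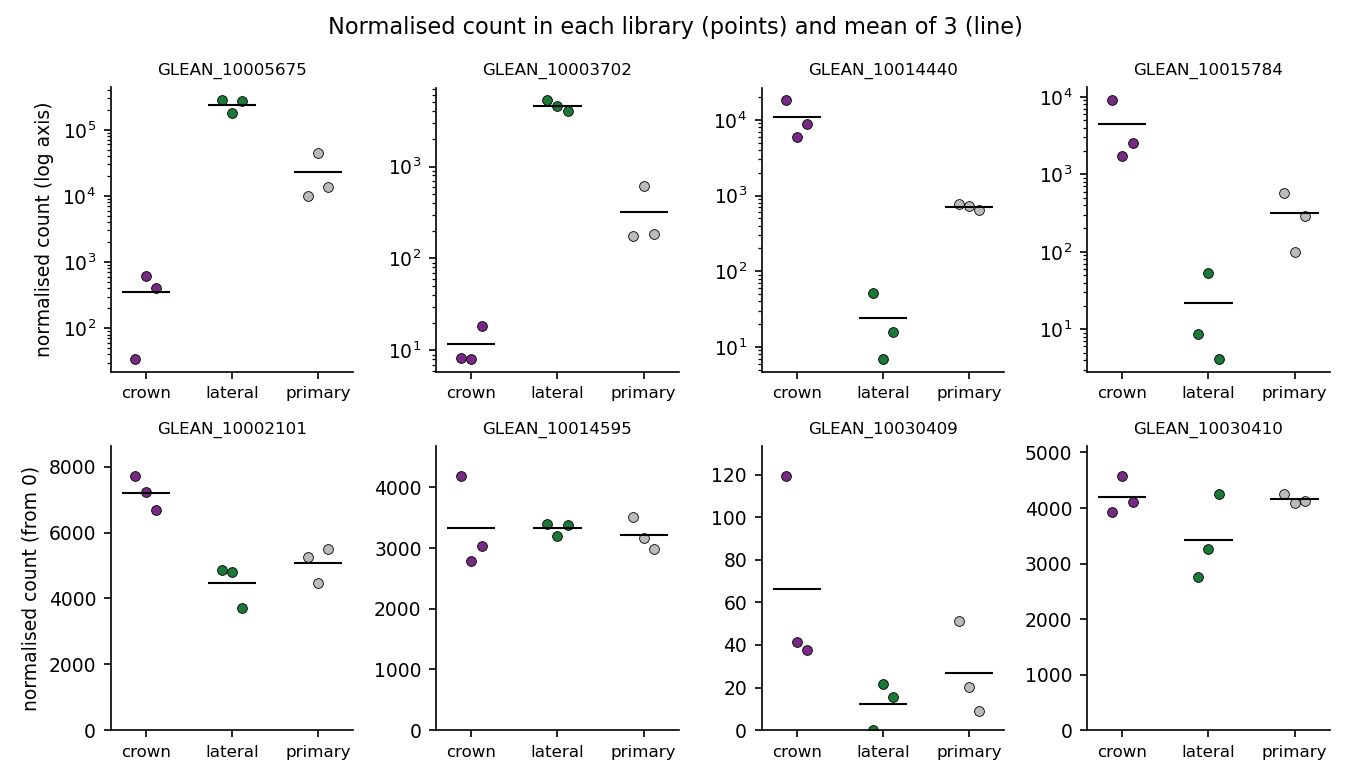
Normalised counts in each library (points) with the mean of 3 replicates (line) for the 2 largest increases and 2 largest decreases among called genes above 0 in all 6 lateral and crown root libraries (upper row, log axes) and the 4 candidate genes (lower row, axes from 0). In the upper row lateral and crown roots lie far apart with primary roots between, as in Pgl_GLEAN_10005675 (354 against 241046 on average). In the lower row only Pgl_GLEAN_10002101 and Pgl_GLEAN_10030409 have no overlap between lateral and crown roots.

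A small set of genes was listed at 0 throughout a root type. All 3 crown root libraries were at 0 for 92 genes with a value above 0 in lateral roots, and all 3 lateral root libraries were at 0 for 30 genes with a value in crown roots. Of the 92 genes 53 were called higher, against 8.38% of all genes, and of the 30 genes 15 were called lower, against 4.84%. Being at 0 in a whole group already favours a call, so nothing is read from these counts. These genes were low where they were present, with a median of the mean level of 49.8 normalised counts in lateral roots and 47.4 in crown roots. At least 30 normalised counts in all 3 libraries of the other root type were reached by 39 and 10 genes. The highest mean was 1088 in lateral roots and 908 in crown roots. Of the 39 genes 2 were also at 0 in every primary root library, and of the 10 genes none (0) were. An exact 0 can be a failed estimate, so no fold change is given.

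Genes with adjoining numbers tended to change in the same direction. Of the genes called higher in lateral roots 1025 have a gene with the next number in the table, and 169 of those next genes, 16.5%, were called higher too, against 8.38% of all genes. Of 609 genes called lower with a next number 69, or 11.3%, were followed by a gene called lower, against 4.84% of all. At a distance of 20 numbers the shares were 8.95% and 5.78%, and at 100 numbers 7.39% and 4.87%. Across genes, Pearson's r of the log2 fold changes was 0.173 between adjoining numbers over 13089 pairs, 0.033 at a distance of 5 and 0.004 at 20. Neighbouring genes are not independent replicates, share libraries and may share reads, so these values are a description.

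Runs of adjoining numbers called in the same direction were short. Of the 1656 genes called higher 315, or 19.0%, belonged to 146 runs of at least 2 genes, and of the 957 genes called lower 134, or 14.0%, belonged to 65 runs. The longest run had 5 genes, all higher in lateral roots, with log2 fold changes from 1.40 to 4.13. The longest runs of genes called lower had 3 genes. That adjoining numbers mean adjoining positions is known here only for Pgl_GLEAN_10030409 and Pgl_GLEAN_10030410, which the study places in 1 interval of chromosome 7, and it was not checked for the other genes. Whether the genes of a run are copies that share reads was not tested.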

How the data were processed

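The authors cleaned the reads with CutAdapt (version 3.1), mapped them to ASM217483v2 with Hisat2 (version 2.0.1), assembled transcripts with Stringtie (version 1.3.4) along the annotated coding sequences, kept genes with a count sum of at least 90 and normalised with the DESeq2 method in DIANE. How transcripts were turned into counts is, in the sources used here, not given. The deposited values are a signal per gene: counts divided by 1 factor per library. All 9 columns were assigned by the sample descriptions. In every library 100% of the values were whole multiples of a single step (tolerance 0.1 of a step), and 29.8% to 34.0% of the low counts were multiples of 4, so a count may not be a read and no counting interval is given.

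Lateral and crown roots were compared with limma 3.58.1 (R 4.3.3) on log2(normalised count + 1), fitting all 9 libraries at once, with a mean-variance trend, and p-values were adjusted after Benjamini and Hochberg over 19754 genes. The thresholds were those of the study's methods, 0.01 for the adjusted p and 1 for the size of the log2 fold change. Fold changes on this scale can understate changes of low genes, but a library without counts can also make them larger. For Pgl_GLEAN_10030409 the fitted change was -3.01, and -1.585 without lateral root replicate 1. Exact permutation tests used scipy 1.17.1. P-values measure the spread between pools of 3 plants. In limma this spread is shared by the 3 root types. The median SD was 0.213 in primary, 0.224 in lateral and 0.291 in crown roots, so the shared value can understate the crown root spread. Fitting only the 6 lateral and crown root libraries gave 2429 called genes. The procedure was tested on simulated data.

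Named were the 2 largest increases and 2 largest decreases among called genes above 0 and without overlap in the 6 libraries, and the 4 candidates of the study. The contrast, lists and rules were chosen with earlier results of these data known. Alternatives were equal totals, quantile normalisation, pseudocounts of 10 and 0.5, no trend, a replicate block, genes with a mean of at least 50, only the 6 libraries, other thresholds and each library left out. Voom was added after the values were seen. The planned count tests were not run: in 2 of the 9 libraries the lowest value above 0 is 2 steps, so the step cannot be read from the lowest value alone, and of the tests only voom used recovered counts. No annotation or sequence was used here.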

Additional observations from a re-analysis of the deposited data

How the results depend on the processing

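The number of called genes stayed within 1.5 times 2613 under all alternatives except 1: testing against a log2 fold change of 1 left 720, and it tests a stricter hypothesis. Raising the adjusted p to 0.05 gave 3431, and dropping the minimum change gave 3711. Leaving out each of the 9 libraries gave 1950 to 2760. The replicate block gave 2413, and voom on recovered counts 2399. Same-numbered lateral and crown root replicates had correlations of their deviations of -0.063, -0.021 and -0.109. Such correlations cannot show whether same-numbered pools came from the same plants, which the labels do not say. In all 19 fits at these thresholds, the reported one included, 1526 of the 2613 genes were called in the same direction. For Pgl_GLEAN_10002101 (log2 fold change -0.70) the call on the adjusted p was lost without the trend, at the same -0.70, and with 1 library left out the change ran from -0.77 to -0.57. Its change also depended on the scale, at -0.53 with equal totals and -0.60 with quantile normalisation, with limma adjusted p under 0.01 in both. For Pgl_GLEAN_10014595, which was not called, the fitted change ran from -0.097 to 0.195 with 1 library left out and was below 0 without crown root replicate 2 (-0.097) or 3 (-0.038). For the 4 genes named for their changes, 71 of 72 alternatives kept the call, the exception being voom for Pgl_GLEAN_10015784 (-7.85). These 4 genes were picked for the largest changes in the same data. Keeping the call was therefore likely from the start and says little about the other called genes. The share of the total in the highest genes was lower in lateral roots by 3.02 percentage points for 100 genes (a difference of -3.02), with -1.19 for 20 genes and -4.71 for 500. Counts of at least 4-fold changes and counts in the highest decile stayed within 1.5 times. The excess of lower calls in the highest decile was nevertheless reversed with equal totals and with quantile normalisation. Counts in the lowest decile, compared under equal totals only, stayed within 1.5 times as well. The edgeR and DESeq2 alternatives were not run. The standard error was largest in the lowest decile, under 40.3 normalised counts; the part of depth in this was not tested.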
